A study of Arabidopsis thaliana with 10 samples.

Results

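Heat shock proteins are molecular chaperones that hold, refold or disaggregate damaged proteins. Heat shock factors are the transcription factors that switch their genes on, and in Arabidopsis the HSFA1 factors act first and induce HSFA2, which extends the response. The small heat shock proteins are nearly silent in unstressed leaves and roots and climb steeply with heat, whereas several HSP70 and HSP90 genes are expressed at all times.

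The genes described here were 34 listed loci of this kind, among 23666 genes that passed a filter on dim probes. Of the 23666, 20037 had a locus code, and the rest were array targets without one that were counted as genes. The 34 loci comprised 11 small heat shock protein genes, the HSP100 genes HSP101 and CLPB3, 5 HSP70 genes, 3 HSP90 genes, 9 heat shock factor genes and 4 cofactor genes. All 34 were on the array, with 53 probes, and all 34 passed the filter on dim probes. Of these, 31 were well above background on all 10 arrays. The other 3 were HSP23.6-MITO, HSP21 and ATHSP22.0, which are described with their dim arrays below. Genes were named from RefSeq, and loci without a symbol keep their locus code.

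Whole seedlings of Arabidopsis thaliana, ecotype Col-0 and 14 days old, had received either gamma radiation (200 Gy in all, at 50 Gy per h for 4 h, from a cobalt source) or a mock treatment. Both groups were collected 24 h afterwards, and RNA was hybridised to 1-colour Agilent arrays. There were 5 gamma arrays and 5 mock arrays, 1 of each in 5 runs made on different days with independent plants. Runs 1 and 2 were made in 2015 and runs 3, 4 and 5 in 2017. All groups were wild type and were grown on agar medium under long days at about 23 °C.

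Levels below are log2 processed signal minus the 75th percentile of the same array, so 0 is that percentile, and levels of different genes are not compared because probes differ in brightness. Between 71.7% and 76.6% of probes on an array exceeded background clearly, and saturation affected 0 spots. The 75th percentile of processed signal lay between 1645 and 2641. All 4 leaf markers and all 5 root markers were well above background on every array. The 4 DNA damage genes used to check irradiation were 2.71 to 6.08 log2 units higher in gamma than in mock seedlings in every run. On every slide the gamma array sat in the second position and the mock array in the first, so position and treatment cannot be told apart. In whole seedlings, fewer expressing cells and less RNA per cell cannot be told apart either.

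The data show no heat shock gene whose level was called different between gamma and mock seedlings. In limma with run as a block, 0 of 34 genes passed an adjusted p of 0.05 (Benjamini-Hochberg), against 4.01% of all genes tested, and at an unadjusted p under 0.05 there were 2 of 34 against 22% of all genes. Positive and negative estimates were equally frequent, 17 each, with a median log2 change of -0.0025 against -0.015 over all genes. The estimates ran from -0.68 for HSP21 to 0.31 for CLPB3. For 28 of the 34 genes the 95% confidence interval lay within a 2-fold change in either direction, against 94.2% of all genes. The same sign was seen in all 5 runs for 2 of 34 genes, against 23.7% of all genes.

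What did differ was the run. For the median heat shock gene, the run accounted for 92.1% of the sum of squares over the 10 arrays, gamma for 1.27% and the remainder for 6.67%, where the medians over all genes were 80.2%, 4.58% and 10.5%. The SD of the gamma minus mock difference was in the highest 10% of all genes for 16 of the 34 genes, 9 of them small heat shock protein genes. The SD over the 5 mock arrays was in the highest 10% of all genes for 20 of the 34 genes, 10 of them small heat shock protein genes. Mock levels were highest in run 2 for 25 of the 34 genes, a count whose share over all genes was not computed. Both arrays of run 2 were above the other 8 arrays for 21 of the 34 genes, against 5.19% of all genes, and all 11 small heat shock protein genes were among them.

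**Figure D1:**
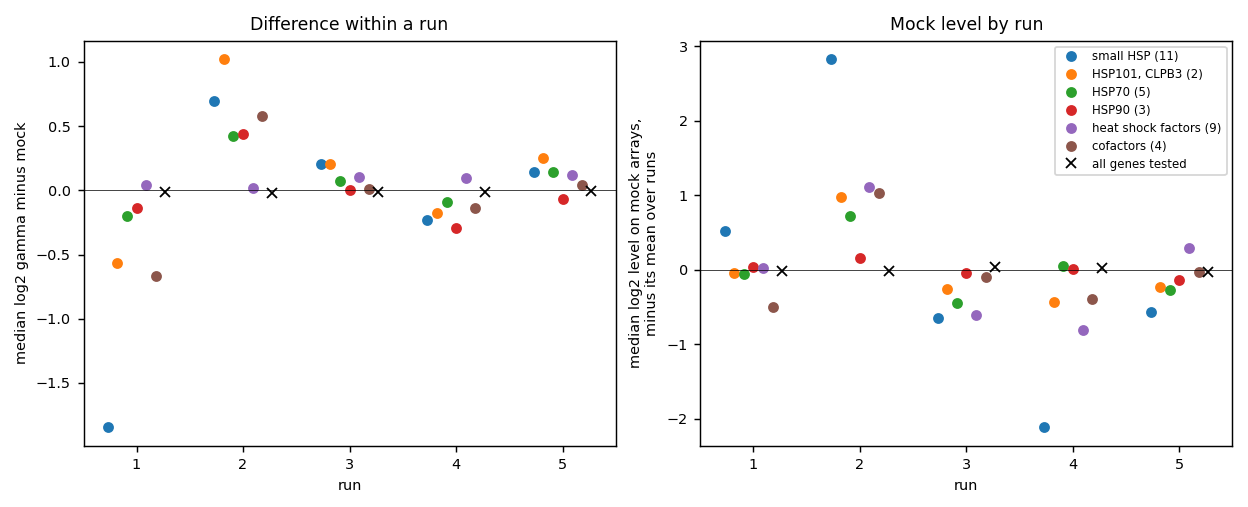
Medians over the genes of each class in each run. The left panel shows the median log2 gamma minus mock difference and the right panel the median log2 mock level of the class minus the mean of that median over runs. Points are class medians, crosses are medians over all genes tested, and runs are numbered in date order. Small heat shock protein genes sat at -1.84 in run 1 and 0.69 in run 2 in the left panel, with the all-gene crosses close to 0.

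Run by run, the small heat shock protein genes had median gamma minus mock differences of -1.84 in run 1, 0.69 in run 2, 0.21 in run 3, -0.23 in run 4 and 0.14 in run 5. Across all 34 genes the medians were -0.41, 0.43, 0.05, -0.19 and 0.12 in runs 1 to 5. Both medians were negative in runs 1 and 4 and positive in runs 2, 3 and 5. Within a run there is 1 array per group, so these are values without a test. With normexp background correction the small heat shock protein median of run 1 was -0.94.

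In run 1, gamma was at least 2-fold below mock for 9 of the 34 genes, against 1.35% of all genes, and at least 2-fold above mock for 0 of 34, against 1.17%. For 2 of the 9, the gamma array (HSP21) or both arrays (ATHSP22.0) were not well above background, which leaves 7. In run 2, gamma was at least 2-fold above mock for 2 of 34 genes, CLPB3 and AT5G37670, against 3.73% of all genes, and at least 2-fold below for 1, HSP23.6-MITO, against 2.59%. In run 3 the counts were 0 below and 0 above, against 1.77% and 1.48% of all genes. In run 4 the measured signals of 2 of 34 genes were at least 2-fold below (against 1.35%) and 0 above (against 0.947%). Of these 2, HSFA2 was measured on both arrays, whereas the gamma array of HSP21 was not well above background. In run 5 they were 0 below (against 1.11%) and 0 above (against 0.621%).

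**Figure D2:**
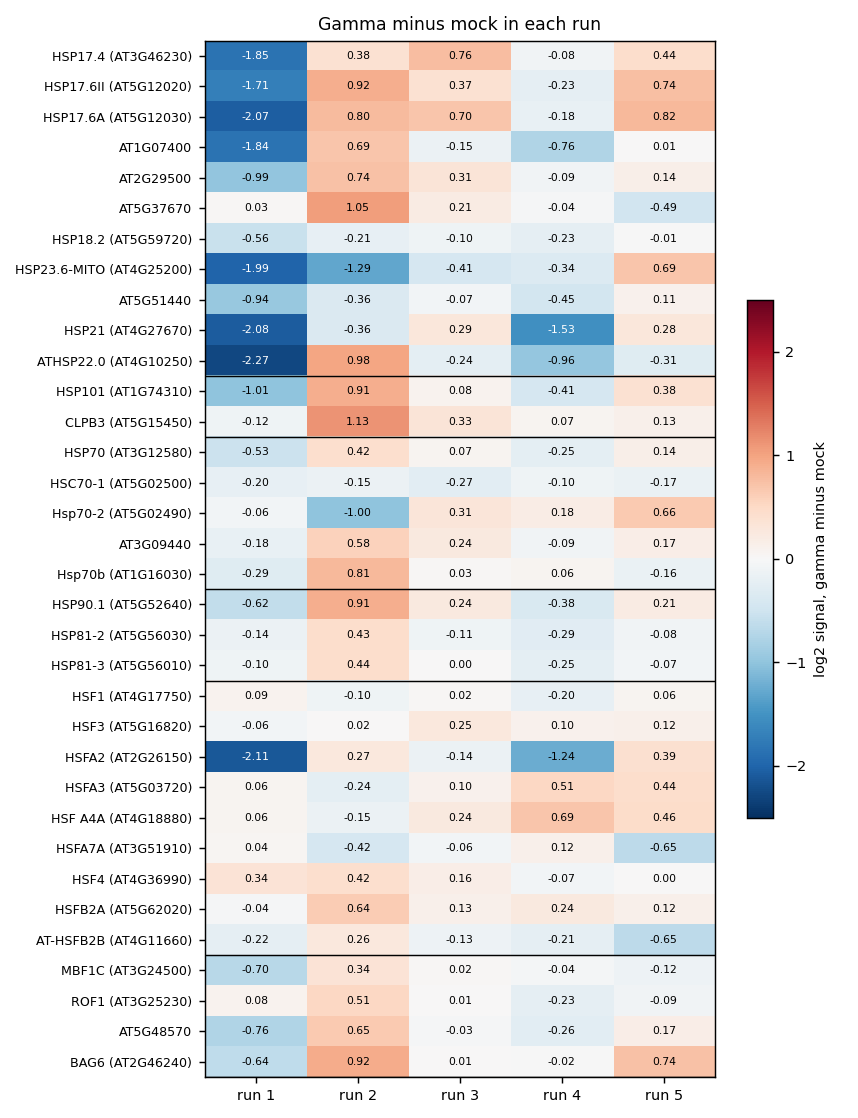
Log2 gamma minus mock difference of each of the 34 genes (rows, by class) in each of the 5 runs (columns), with the value written in each cell. Run 1 holds 27 genes below 0, against 12636 of 23664 over all genes. Run 2 holds 24 above 0, against 11350 of 23665 over all genes. The 8 lowest values of run 1 are those of HSFA2 and 7 of the 11 small heat shock protein genes.

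Clock genes also differed within runs, and their part in the heat shock values was not tested. Of 11 clock genes, 0 passed the limma threshold for gamma against mock, and 3 differed at least 2-fold in run 1, 3 in run 2, 0 in run 3, 2 in run 4 and 1 in run 5. LHY, a morning-phased clock regulator, had gamma minus mock differences of -1.27, 3.04, -0.31, -1.64 and -1.96 in runs 1 to 5. CCA1, its close relative, had differences of -1.07, 1.97, 0.09, -0.9965 and -0.93. By sign, 4 of the 11 clock genes were above mock and 7 below in run 1. In run 2 the counts were also 4 above and 7 below. The 4 above mock in run 2 were LHY, CCA1, PRR9 and RVE8, and these were below mock in runs 1, 4 and 5. The gamma minus mock difference of PRR9 was -1.49 in run 1 and 0.94 in run 2, and that of RVE8 was -0.71 and 1.77. Among the 11 small heat shock protein genes, 10 were below mock in run 1 and 11 in run 4. Above mock there were 7 in run 2, 6 in run 3 and 8 in run 5. Over all genes, 12636 of 23664 were below mock in run 1 and 12451 of 23665 in run 4. Of 23665 genes, 11350, 11261 and 11599 were above mock in runs 2, 3 and 5. Over the 11 clock genes the differences ranged from -1.49 to 0.23 in run 1 and from -0.71 to 3.04 in run 2. Both arrays of run 2 were the highest for 0 of the 11 clock genes, against 5.19% of all genes. With 11 genes these cannot be told apart.

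Heat shock factors come first in the order of the pathway. HSF1 and HSF3 encode HSFA1-type factors, which in Arabidopsis are present before heat and start the response. HSF1 was at -2.40, -2.32, -2.37, -2.62 and -2.10 in gamma seedlings of runs 1 to 5, against -2.49, -2.22, -2.40, -2.41 and -2.16 in mock seedlings. HSF3 was at -0.43, -0.85, -0.60, -0.66 and -0.83 in gamma seedlings, against -0.37, -0.86, -0.85, -0.75 and -0.94 in mock seedlings. The groups overlapped for both genes, and run 2 was not raised as it was for HSFA2 below. The limma estimates were -0.03 ± 0.06 for HSF1 (SE, adjusted p = 0.846) and 0.08 ± 0.06 for HSF3 (SE, adjusted p = 0.471), n = 5 arrays per group. Each gene had a second, dimmer probe, well above background on all 10 arrays. Its mean gamma minus mock difference was 0.15 for HSF1, above mock in 4 of 5 runs, and 0.13 for HSF3, above mock in 5 of 5.

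HSFA2, the heat-induced factor that prolongs the response, had the widest spread among the factor genes. Its level was -3.32, 1.09, -3.11, -4.00 and -0.37 in gamma seedlings of runs 1 to 5, against -1.21, 0.83, -2.97, -2.76 and -0.77 in mock seedlings. Run 2 was highest in both groups and run 5 next, and the groups overlapped. Gamma was 4.32-fold below mock in run 1, and over 5 runs the estimate was -0.57 ± 0.39 (SE, limma adjusted p = 0.435), with gamma above mock in 2 of 5 runs. Mock levels alone spanned 13.9-fold between run 2 and run 3.

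The remaining factor genes stayed nearer to their mock partners. HSFA3, which acts downstream of the dehydration factor DREB2A, had an estimate of 0.18 ± 0.12 (SE, limma adjusted p = 0.429), and its mock levels spanned 3.95-fold over runs. The factor gene HSF A4A was at 0.26 ± 0.13 (SE, limma adjusted p = 0.289) and above mock in 4 of 5 runs, its exception being run 2. HSFA7A had an estimate of -0.19 ± 0.13 (SE, limma adjusted p = 0.419). It was one of only 2 of the 9 factor genes, with HSFA2, for which both run 2 arrays were the highest.

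Class B factors lack the activation motif of class A and several act as repressors. HSF4, a class B factor gene, was at 0.17 ± 0.09 and HSFB2A at 0.22 ± 0.10 (SE, limma adjusted p = 0.316 and 0.275, both above mock in at least 3 runs). AT-HSFB2B was at -0.19 ± 0.12 (SE, limma adjusted p = 0.418), below mock in 4 of 5 runs. Over the 9 factor genes 5 estimates were above 0 and 4 below, and the median was 0.085.

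Small heat shock proteins bind unfolding proteins without using ATP and keep them from aggregating. Their 11 genes had a median log2 change of -0.22, with 4 estimates above 0 and 7 below, and 0 of 11 passed the threshold. That median was -0.053 without run 1 and -0.035 with normexp background correction. It was -0.028 with genes above background on all arrays, which leaves out HSP21, HSP23.6-MITO and ATHSP22.0. Those had the lowest estimates of the 11 genes, at -0.68, -0.67 and -0.56. The median SD of their gamma minus mock difference was 1.02 log2 units, against 0.186 over all genes, and the median SD over mock arrays was 1.58 against 0.292.

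Among cytosolic small heat shock proteins, HSP17.4 (class I) was at -4.58, 1.04, -2.37, -4.67 and -3.04 in gamma seedlings of runs 1 to 5, against -2.72, 0.66, -3.13, -4.59 and -3.48 in mock seedlings. Run 2 stood above all other runs in both groups. The run effect was large beside the treatment: mock levels spanned 38.1-fold between runs 2 and 4, and the gamma estimate was -0.07 ± 0.37 (SE, limma adjusted p = 0.931). In run 1, gamma was 3.61-fold below mock, and in run 3 it was above mock by 0.76 log2 units.

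HSP17.6II and HSP17.6A are class II cytosolic genes that lie next to each other with 0 annotated genes between them. HSP17.6II was at -5.27, 0.80, -4.42, -5.40 and -2.98 in gamma seedlings of runs 1 to 5, against -3.56, -0.12, -4.79, -5.17 and -3.72 in mock seedlings. HSP17.6A was at -5.16, 1.15, -3.25, -4.91 and -2.23 in gamma seedlings, against -3.10, 0.35, -3.95, -4.73 and -3.05 in mock seedlings. In both genes gamma was below mock in runs 1 and 4, above it in runs 2, 3 and 5, and highest in run 2. The run 1 difference was 3.28-fold for HSP17.6II and 4.19-fold for HSP17.6A, gamma below mock. HSP17.6A had the largest SD of the gamma minus mock difference among the 34 genes, 1.24 log2 units, and HSP17.6II had 1.06. That rank depended on background correction: with normexp the SE of the HSP17.6A estimate was 0.27, below 0.31 for AT1G07400. Both genes were well above background on all arrays but low in run 1 gamma seedlings. The 1st percentile of signals well above background on that array was -6.02. The estimates were 0.02 ± 0.38 and 0.01 ± 0.44 (SE, limma adjusted p = 0.983 and 0.988).

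The small heat shock protein gene AT1G07400 was at -1.94, 3.42, -1.03, -2.08 and 0.38 in gamma seedlings of runs 1 to 5, against -0.10, 2.73, -0.88, -1.32 and 0.37 in mock seedlings. Run 2 was again the highest and the groups overlapped. Gamma was 3.59-fold below mock in run 1 and below mock in 3 of 5 runs, and the estimate was -0.41 ± 0.34 (SE, limma adjusted p = 0.523). AT2G29500, another small heat shock protein gene without a symbol, was at 0.02 ± 0.23 (SE, limma adjusted p = 0.963), and its run 1 difference was -0.99. AT5G37670 was above mock by 1.05 in run 2 but by 0.03 in run 1, and its estimate was 0.15 ± 0.21 (SE, limma adjusted p = 0.701).

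**Figure D3:**
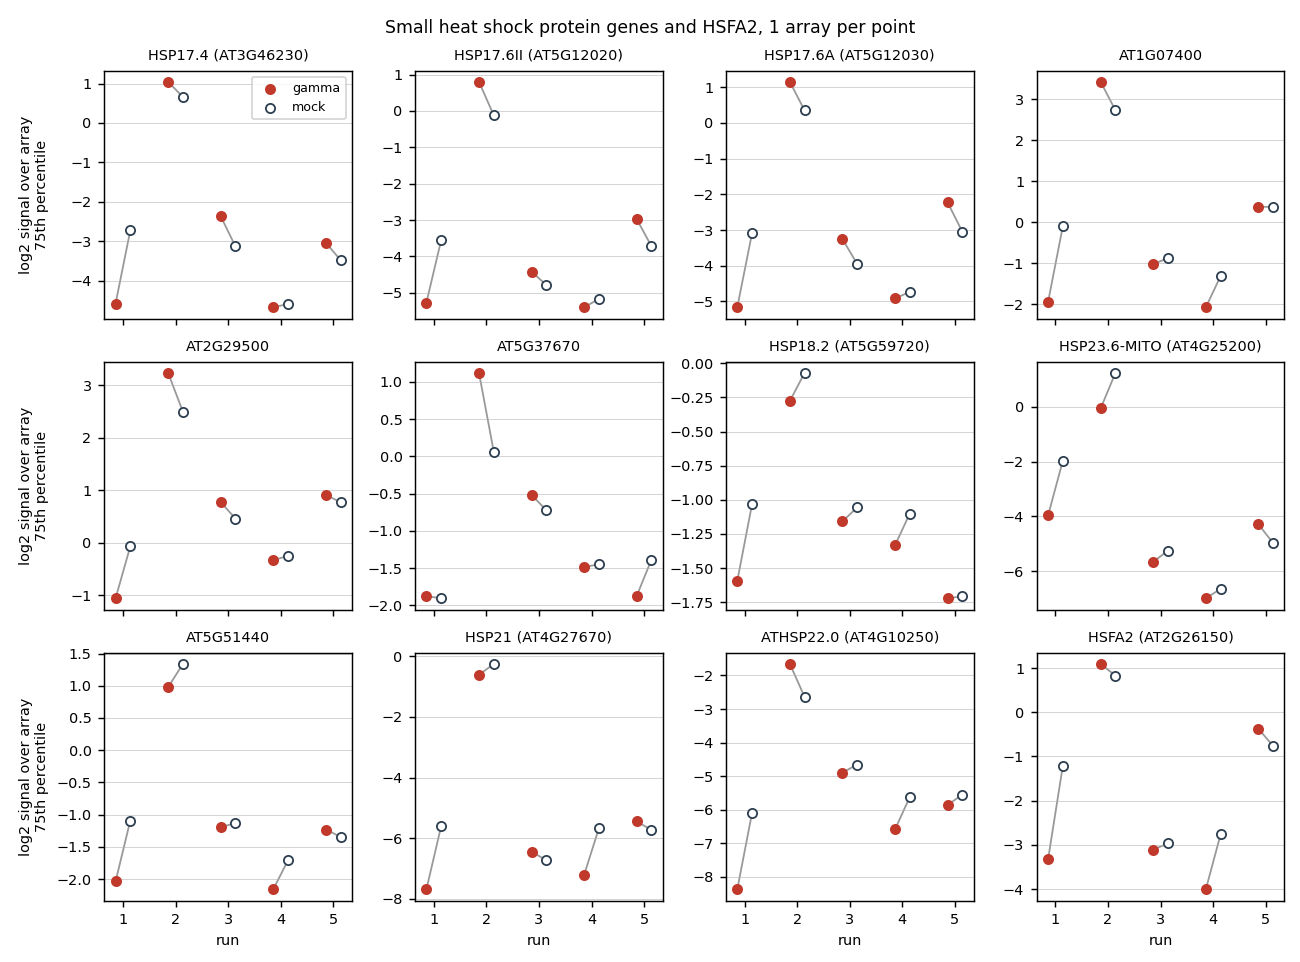
Log2 level relative to the array's 75th percentile in gamma and mock seedlings of each of the 5 runs for the 11 small heat shock protein genes and HSFA2, 1 array per point, with a grey line joining the arrays of a run. Run 2 is the highest run in both groups for HSFA2 and the small heat shock protein genes shown, such as HSP17.4 at 1.04 in gamma and 0.66 in mock seedlings, and in run 1 gamma lies below mock in every panel except AT5G37670.

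HSP18.2, a class I gene, was one of the 2 genes with an unadjusted p under 0.05. It was at -1.59, -0.28, -1.16, -1.33 and -1.72 in gamma seedlings of runs 1 to 5, against -1.03, -0.07, -1.05, -1.10 and -1.71 in mock seedlings. Gamma was below mock in 5 of 5 runs, with a difference of -0.56 in run 1 and -0.01 in run 5. The groups overlapped when pooled over runs, which the fit within runs does not use. The estimate was -0.22 ± 0.09 (SE, limma unadjusted p = 0.0419, adjusted p = 0.209). This gene spread less than its relatives, with mock levels that spanned 3.11-fold.

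A mitochondrial, a chloroplast and an endoplasmic reticulum small heat shock protein gene were dim on some arrays. HSP23.6-MITO, of mitochondria, was at -3.96, -0.05, -5.66, -6.99 and -4.29 in gamma seedlings of runs 1 to 5, against -1.96, 1.24, -5.25, -6.65 and -4.98 in mock seedlings. Both arrays of run 4 were not well above background. Gamma was below mock 3.99-fold in run 1 and 2.45-fold in run 2, whereas it was above mock by 0.69 in run 5. The estimate was -0.67 ± 0.37 (SE, limma adjusted p = 0.341), and mock levels in run 2 were at least 155-fold above those in run 4, by the bound described for HSP21 below.

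HSP21, of chloroplasts, was at -7.68, -0.62, -6.44, -7.21 and -5.44 in gamma seedlings of runs 1 to 5, against -5.60, -0.26, -6.73, -5.67 and -5.73 in mock seedlings. The gamma arrays of runs 1, 3 and 4 and the mock array of run 3 were not well above background. Where an array was too dim, folds are bounds against the 1st percentile of the signals well above background on that array. On that basis gamma was at least 1.33-fold below mock in run 1 and at least 1.24-fold below in run 4. No fold is given for run 3. Mock levels in run 2 were at least 41.5-fold above those in run 3. The estimate, which uses the measured signals of the dim arrays, was -0.68 ± 0.39 (SE, limma adjusted p = 0.355).

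ATHSP22.0, of the endoplasmic reticulum, was at -8.37, -1.66, -4.90, -6.59 and -5.86 in gamma seedlings of runs 1 to 5, against -6.11, -2.64, -4.65, -5.63 and -5.55 in mock seedlings. Both arrays of run 1 and the gamma array of run 4 were not well above background, so no fold is given for run 1 and gamma was at least 1.29-fold below mock in run 4. Only in run 2 was gamma above mock, and both groups were highest there. The estimate was -0.56 ± 0.43 (SE, limma adjusted p = 0.481). AT5G51440, another small heat shock protein gene without a symbol, was at -0.34 ± 0.15 (SE, limma unadjusted p = 0.0631, adjusted p = 0.255), below mock in 4 of 5 runs.

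HSP101 is the cytosolic disaggregase needed for acquired heat tolerance. It was at -1.98, 2.32, -1.63, -2.08 and -0.07 in gamma seedlings of runs 1 to 5, against -0.97, 1.41, -1.71, -1.67 and -0.45 in mock seedlings. Run 2 was highest in both groups, gamma was 2.01-fold below mock in run 1 and 1.88-fold above in run 2, and the estimate was -0.01 ± 0.27 (SE, limma adjusted p = 0.988). CLPB3, its chloroplast counterpart, was at 0.72, 1.62, 1.48, 0.82 and 0.06 in gamma seedlings, against 0.84, 0.49, 1.16, 0.75 and -0.06 in mock seedlings. Gamma was above mock in 4 of 5 runs and 2.19-fold above in run 2, with an estimate of 0.31 ± 0.18 (SE, limma adjusted p = 0.369). Unlike HSP101, its highest mock level was in run 3.

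HSP70 chaperones fold new and damaged proteins with ATP. HSC70-1, the constitutively expressed cytosolic form, had the smallest adjusted p of the 34 genes. It was at 4.61, 4.71, 4.26, 4.47 and 3.93 in gamma seedlings of runs 1 to 5, against 4.81, 4.87, 4.53, 4.57 and 4.09 in mock seedlings. Gamma was below mock in 5 of 5 runs, with differences of -0.27 to -0.10. The groups overlapped when pooled over runs, but the fit compares arrays within a run. The estimate was -0.18 ± 0.05, a 1.13-fold difference (SE, 95% interval -0.30 to -0.06, limma unadjusted p = 0.0120, adjusted p = 0.115). All 8 HSC70-1 probes had mean differences below 0, between -0.20 and -0.094, but not each was below mock in 5 of 5 runs. A probe at -0.10 was above mock in 2 runs, and the probe at -0.094 had an SE of 0.14. The probes were read on the same arrays and are not independent.

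The other HSP70 genes did not share that behaviour. Hsp70-2, the neighbour of HSC70-1 with 0 annotated genes between them, was at 0.68, 1.04, 0.40, 0.76 and 1.08 in gamma seedlings of runs 1 to 5, against 0.74, 2.04, 0.09, 0.58 and 0.42 in mock seedlings. It was below mock in runs 1 and 2 and above in runs 3, 4 and 5, with an estimate of 0.02 ± 0.23 (SE, limma adjusted p = 0.974). Heat-inducible HSP70 was at -0.03 ± 0.14 and Hsp70b at 0.09 ± 0.16 (SE, limma adjusted p = 0.920 and 0.777), and both were highest in run 2 in both groups. AT3G09440 was at 0.14 ± 0.12 (SE, limma adjusted p = 0.514), but its 3 probes ranged from -0.42 to 0.14. The probe at -0.42 was well above background on 6 of 10 arrays, and the remaining probes, at 0.14 and 0.12, on all 10. HSP70 and HSP90 genes of the cytosol are similar in sequence, and how far each probe separates them was not tested.

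HSP90 chaperones act on signalling proteins and hold heat shock factors inactive. HSP90.1, the heat-inducible form, was at -0.50, 3.32, 1.02, 0.29 and 1.43 in gamma seedlings of runs 1 to 5, against 0.12, 2.40, 0.77, 0.68 and 1.22 in mock seedlings. Both run 2 arrays were the highest, and the estimate was 0.07 ± 0.22 (SE, limma adjusted p = 0.872). A second HSP90.1 probe had a mean gamma minus mock difference of -0.11. Constitutive HSP81-2 and HSP81-3, which have 1 annotated gene between them, were at -0.04 ± 0.11 and 0.0036 ± 0.10 (SE, limma adjusted p = 0.865 and 0.987). Their mock levels spanned 1.23-fold and 1.39-fold over runs, against 4.87-fold for HSP90.1.

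Cofactors complete the list. MBF1C, a transcriptional coactivator of heat tolerance, was at -0.10 ± 0.14 (SE, limma adjusted p = 0.717). The peptidyl-prolyl isomerases ROF1 and AT5G48570 (ROF2), which associate with HSP90 and modulate HSFA2 activity, were at 0.06 ± 0.11 and -0.04 ± 0.19 (SE, limma adjusted p = 0.798 and 0.912). BAG6, a co-chaperone of HSP70, was at 0.20 ± 0.23 (SE, limma adjusted p = 0.638). Run 2 arrays were the highest in both groups for MBF1C, AT5G48570 and BAG6 but not for ROF1, and in run 1 the differences of these 3 were -0.70, -0.76 and -0.64.

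**Figure D4:**
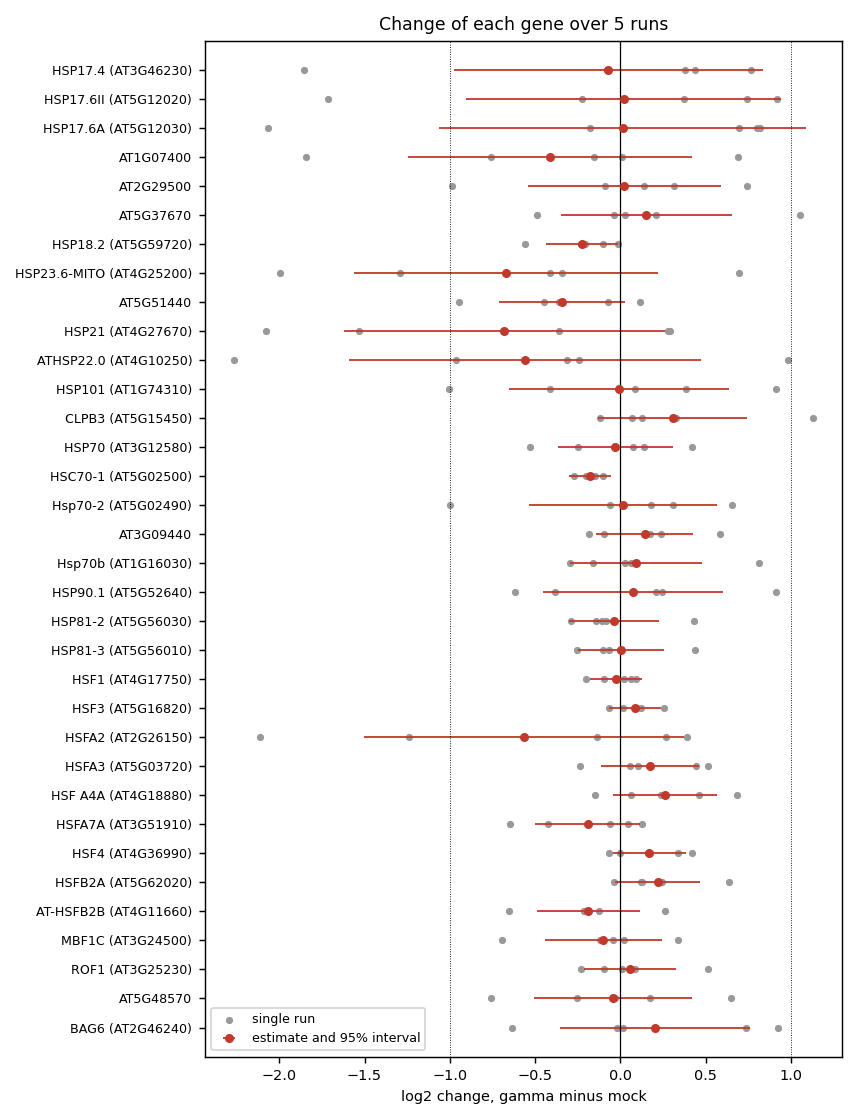
Log2 change, gamma minus mock, of each of the 34 genes from limma with run as a block, with 95% confidence intervals, grouped by class and with grey points for the single runs and dotted lines at a 2-fold change. Estimates lie between -0.68 (HSP21) and 0.31 (CLPB3), and the 8 widest intervals are those of HSFA2 and 7 of the 11 small heat shock protein genes.

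The change was also compared between years. For the difference of the gamma minus mock change between 2017 and 2015 runs, 0 of 34 genes passed the limma threshold, against 0.00423% of all genes (1 gene). The smallest adjusted p among the 34 was 0.315, for HSP23.6-MITO, with a difference of 1.62 log2 units. A p that misses the threshold does not show that the years were alike.

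Other heat and chaperone genes, 43 in all and 40 past the filter, gave 0 past the threshold, with 9 of 40 at an unadjusted p under 0.05, against 22% of all genes, and 8 of 40 of one sign in all 5 runs, against 23.7% of all genes. Both of these shares were close to those of all genes. The run 2 trait was also seen here. Both arrays of run 2 were the highest for 13 of the 40 genes, against 21 of the 34 listed genes and 5.19% of all genes. The SD over mock arrays was in the highest 10% of all genes for 12 of the 40, and the SD of the gamma minus mock difference for 7. The median log2 change of the 40 genes was -0.0047, with 19 estimates above 0 and 21 below. The 3 smallest adjusted p values were of organelle chaperones. HSP60, the mitochondrial chaperonin, was at -0.31 ± 0.06 (SE, limma adjusted p = 0.0547) and below mock in 5 of 5 runs. The mitochondrial HSP70 gene mtHsc70-1 was at -0.25 ± 0.05 (SE, limma adjusted p = 0.0616) and below mock in 5 of 5 runs. SHD, the HSP90 of the endoplasmic reticulum, was at 0.26 ± 0.07 (SE, limma adjusted p = 0.100) and above mock in 5 of 5 runs. HSP60 and mtHsc70-1 passed the threshold under some other settings, with limma adjusted p of 0.0448 and 0.0375 after normexp background correction.

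The genes outside the list whose 5 gamma minus mock differences lay nearest to the small heat shock protein medians were taken by root mean square distance over the 5 runs. The nearest was AT3G46070 at 0.263 log2 units, followed by the protein kinase gene CIPK18 at 0.276, AT3G10986 at 0.318 and AT1G59860 at 0.331. AT1G30190, AT1G76220, AT5G54165, the nudix hydrolase gene NUDT6, AT3G20180 and the MYB factor gene MYB102 followed, at 0.353 to 0.406. AT1G59860, a small heat shock protein gene, was the only one of the 10 from the list of other heat genes, with differences of -1.59, 0.76, -0.15, 0.04 and 0.67 in runs 1 to 5. The nearest gene, AT3G46070, was well above background on 3 of 5 gamma arrays and 3 of 5 mock arrays, and MYB102 on 4 of 5 of each. The distance uses the differences and not the levels. Of the 10 genes, only AT1G59860 and AT5G54165 had both run 2 arrays highest, as all 11 small heat shock protein genes did.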

How the data were processed

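The authors deposited 1 scanner file per array with linear spot intensity, background-subtracted by Agilent Feature Extraction 11.0.1.1 per the file headers; the submitters' processing notes name version 9.1. They also deposited a value table of linear ratios, with most rows (77.7%) centred on 1, whose scaling is unknown; it followed the scanner values with r of at least 0.996 over probes and was used only as an alternative. Its column medians were 0.967, 0.960, 0.967, 0.992 and 0.925 for gamma arrays 1 to 5, and 0.969, 0.963, 0.959, 0.974 and 0.925 for mock arrays 1 to 5.

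From the deposited intensities, spots of a probe were averaged, log2 processed signal was centred on each array's 75th percentile, probes well above background on at least 5 of 10 arrays were kept, and the brightest probe per locus was used (34348 of 43603 probes have a locus). Control and outlier spots were left out. limma 3.58.1 (R 4.3.3) fitted gamma with run as a block, two-sided, with Benjamini-Hochberg adjustment over 23666 genes. Runs pair the arrays: per the labels each run was a separate day, and deviations of the paired arrays from their group means correlated across genes at 0.737, 0.562, 0.775, 0.739 and 0.894 in runs 1 to 5. The procedure was tested on simulated data.

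All genes of the list were accounted for. Full values were given for the 8 with the largest SD of the gamma minus mock difference and, chosen after their values were seen, for HSF1, HSF3, HSP18.2, HSP101, CLPB3, HSC70-1, Hsp70-2 and HSP90.1. From other heat genes the 3 smallest adjusted p were named, and the 10 genes nearest to the small heat shock protein medians. The members and lists were chosen with earlier results of these data known. The number of arrays limits the precision. Promoter and protein sequences and coordinates were not used here.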

Additional observations from a re-analysis of the deposited data

Results flagged for a closer look

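Of 102 sets of 5 values (gamma level, mock level and gamma minus mock difference of each of the 34 genes), 7 (6.86%) held a value standing apart by Dixon's test at the 95% level. Chance alone gives about 1 in 20 for independent sets, which is close to the share seen. These sets are not independent, because the differences come from the levels and the arrays of a run are paired. The share over all genes was not computed. In all 7 flagged sets the value was the highest and came from run 2. Among mock arrays these were AT5G51440 at 1.34 (next -1.09), HSP21 at -0.26 (next -5.60) and Hsp70b at -1.60 (next -3.32). Among gamma arrays they were AT3G09440 at 1.83 (next 1.27), Hsp70b at -0.78 (next -3.48) and HSP81-2 at 3.06 (next 2.38). The gamma minus mock difference of HSP81-2 in run 2 was 0.43, where the next highest run had -0.083. Without run 2 the lowest adjusted p of the 34 genes in limma was 0.106, and 0 passed.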

How the results depend on the processing

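Under 16 alternatives, 0 of 541 refitted values of the 34 genes passed the limma threshold. The lowest adjusted p was 0.091 (HSC70-1, trended and robust variance). The sign differed from that first reported for 50 values in 21 genes, none of them called. Without the replicate block, 107 genes of all genes were higher and 35 lower, against 398 and 551 with it, and the lowest adjusted p of the 34 genes was 0.9996. With no filter on dim probes there were 175 higher and 153 lower. With the 2015 runs alone there were 0 and 0 in limma (2392 at an unadjusted p under 0.05). Leaving out 1 run gave 113 to 404 higher and 68 to 617 lower, and 0 to 617 genes by year, the 617 being without run 1, with 0 of the 34 genes among them; without run 1 or 2, 1 run stands for 2015 and is assumed to vary like the others. Other heat genes called lower numbered 2 with normexp, 1 with all arrays above background, 2 with trended and robust variance, and 0 to 1 on leaving out a run (HSP60 without run 2). The causes were not tested. The small heat shock protein median of -0.22 was also -0.63 with the 2015 runs and -0.11 with the 2017 runs. The floor for dim arrays was chosen after seeing the data: with the single lowest probe well above background as the floor, HSP21 bounds were 4.22-fold and 1.68-fold in runs 1 and 4, that of ATHSP22.0 in run 4 was 1.74-fold, and mock ranges of HSP21, HSP23.6-MITO and ATHSP22.0 were 88.7-fold, 238-fold and 11.05-fold. The count of 21 genes highest on both run 2 arrays was 20 to 23. A separate slide block was not run because each slide holds 1 run. Signal near background limits HSP21, ATHSP22.0 and HSP23.6-MITO. Low signal also bears on HSP17.6II and HSP17.6A, whose SE was 0.38 and 0.44 first and 0.25 and 0.27 with normexp.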
